A study of Homo sapiens with 7 samples.

Results

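The insulin-like growth factor (IGF) axis was examined in human dermal fibroblasts made to express progerin or elevated prelamin A. It was represented by 10 genes: the ligands IGF1 and IGF2, the receptor IGF1R, the binding proteins IGFBP2, IGFBP3, IGFBP4, IGFBP5, IGFBP6 and IGFBP7, and the protease PAPPA. All probe sets that the platform annotation assigned to a member alone were read, and the brightest of them on average over the 7 arrays stood for its gene. Of the 10 members 9 had a probe set of their own and reached a signal of 100 on at least 1 array, and so were among the 12726 genes tested. The 3 probe sets that name IGF2 also name INS-IGF2, so none stood for IGF2 alone and no value is given for it. Of the 35 probe sets of the other 9 members, 26 reached 100 on at least 1 array and 9 stayed below it on every array.

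Total RNA from primary dermal fibroblasts at passage 10, of 1 strain by the labels, was hybridised to Affymetrix whole-genome expression arrays, 1 array per sample. Controls had 2 arrays, and each of the other 5 conditions had 1: progerin, progerin with FTI, prelamin A, prelamin A with FTI, and prelamin A with ZMPSTE24. Progerin is the truncated lamin A of Hutchinson-Gilford progeria, prelamin A is the farnesylated precursor of lamin A, and ZMPSTE24 is the protease that removes its farnesylated end. FTI is the farnesyltransferase inhibitor L-744832, given at 10 nM for 48 h, and DMSO was the vehicle. Progerin and prelamin A came from lentiviral vectors with a CMV promoter, so their levels do not follow the LMNA promoter. The sources used here do not say whether the 2 control arrays came from cells that carried a control virus. The title of the array of prelamin A with FTI names FTI only, and it was placed by its source and treatment labels, which name both. The methods of the study describe transduction of 2 fibroblast lines with duplicate cultures, and no source used here ties a control array to a culture. The p-values of the model with 6 conditions therefore rest on a spread between the 2 controls that may be technical, and those of the pooled models also on the spread between conditions. The pooled models count treated and untreated arrays of 1 line as independent samples, which they are not.

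IGF1 and IGF2 act on cells through IGF1R, a receptor tyrosine kinase that signals through IRS adaptors to PI3-kinase, AKT and mTOR. In the extracellular space the ligands are held by binding proteins, and proteases such as the pappalysin PAPPA cleave some of these carriers and set the ligand free. Dermal fibroblasts secrete several binding proteins, and IGFBP3, IGFBP5 and IGFBP7 are often measured in studies of fibroblast senescence.

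The promoter windows of IGFBP5, IGFBP4 and PAPPA, 3 members picked by hand after their values were seen, are shown as the RefSeq sequence of GRCh38.p14, 250 bases up to the base before the annotated start, 5′ to 3′ on the strand of the gene. The IGFBP5 window lies on the minus strand at chr2:216695550-216695799, the IGFBP4 window on the plus strand at chr17:40443200-40443449 and the PAPPA window on the plus strand at chr9:116153541-116153790. Capitals mark matches, on either strand, to the TATA box letters TATAAA, the GC box letters GGGCGG and the forkhead letters TGTTTAC.
IGFBP5: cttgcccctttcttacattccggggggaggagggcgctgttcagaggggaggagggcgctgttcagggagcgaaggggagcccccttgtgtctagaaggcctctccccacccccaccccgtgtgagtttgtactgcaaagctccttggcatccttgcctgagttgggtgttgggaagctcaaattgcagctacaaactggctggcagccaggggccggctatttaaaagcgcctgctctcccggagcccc
IGFBP4: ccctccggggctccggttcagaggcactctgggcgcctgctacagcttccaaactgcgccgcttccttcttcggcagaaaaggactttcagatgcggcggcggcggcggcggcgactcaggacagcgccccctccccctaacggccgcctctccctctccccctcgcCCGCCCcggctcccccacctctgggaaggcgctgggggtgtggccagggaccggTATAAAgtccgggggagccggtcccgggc
PAPPA: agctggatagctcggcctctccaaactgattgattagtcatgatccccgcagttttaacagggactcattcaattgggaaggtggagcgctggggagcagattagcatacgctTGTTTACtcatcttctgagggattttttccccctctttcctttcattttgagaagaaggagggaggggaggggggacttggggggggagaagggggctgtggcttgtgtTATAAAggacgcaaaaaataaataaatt

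Promoter windows were found for 8 members. They had 11 windows, since some have several starts. The letters TATAAA were in 2 of the 11 and in 10.7% of all 35116 windows, beginning 29 bases before the start of IGFBP4 and 28 before that of PAPPA. The letters GGGCGG were in 6 of the 11 and in 42.6% of all windows. The letters TGTTTAC were in 3 of the 11, of PAPPA, IGFBP6 and IGF1, and in 2.98% of all windows, and none of the 3 motifs was in the IGFBP5 window. The motifs were chosen after the expression values were seen, do not overlap each other in these windows, and are a description of letters and not of binding sites. IGFBP2 and IGFBP5 are next to each other on chromosome 2, with no other protein-coding gene of the RefSeq table between them.

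The deposited values are signals scaled to a common level, and the highest array median was 1.19 times the lowest. The 2 controls correlated with a Pearson r of 0.959 across genes, which are not independent replicates, and lay over 2-fold apart in 9.28% of genes. All 10 fibroblast markers, such as the collagen genes COL1A1 and COL1A2, reached 100, and the sum of their signals was 284381 to 318876 on the controls and 254737 to 293804 on the other 5 arrays. No keratinocyte marker of 3 and no melanocyte marker of the 2 measured reached 100. Of the smooth muscle markers 2 of 4 reached it, with MYH11 and DES below it, and of the endothelial markers PECAM1 alone. Of the 3 leukocyte markers CD14 and CD3E reached 100 and PTPRC, the pan-leukocyte gene, did not.

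Fold changes below are differences of log2(signal + 16), a scale that understates the change of dim genes. Against control, and for treated against untreated cells, calls required more than a 2-fold change together with an unadjusted limma p under 0.05, in a model of 6 conditions whose only residual spread comes from the 2 controls. These are the thresholds in the Results of the study, while its Methods name a p of 0.01 for the S-score test, and at an unadjusted limma p under 0.01 the calls among the members fell from 3 to 1 in progerin cells and from 2 to 0 in prelamin A cells. IGFBP2 and IGF1 were kept by the signal minimum only through arrays on which they were brightest, so counts over the 9 members are a description. In bulk RNA fewer cells of a kind and less RNA per cell cannot be told apart.

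**Figure D1:**
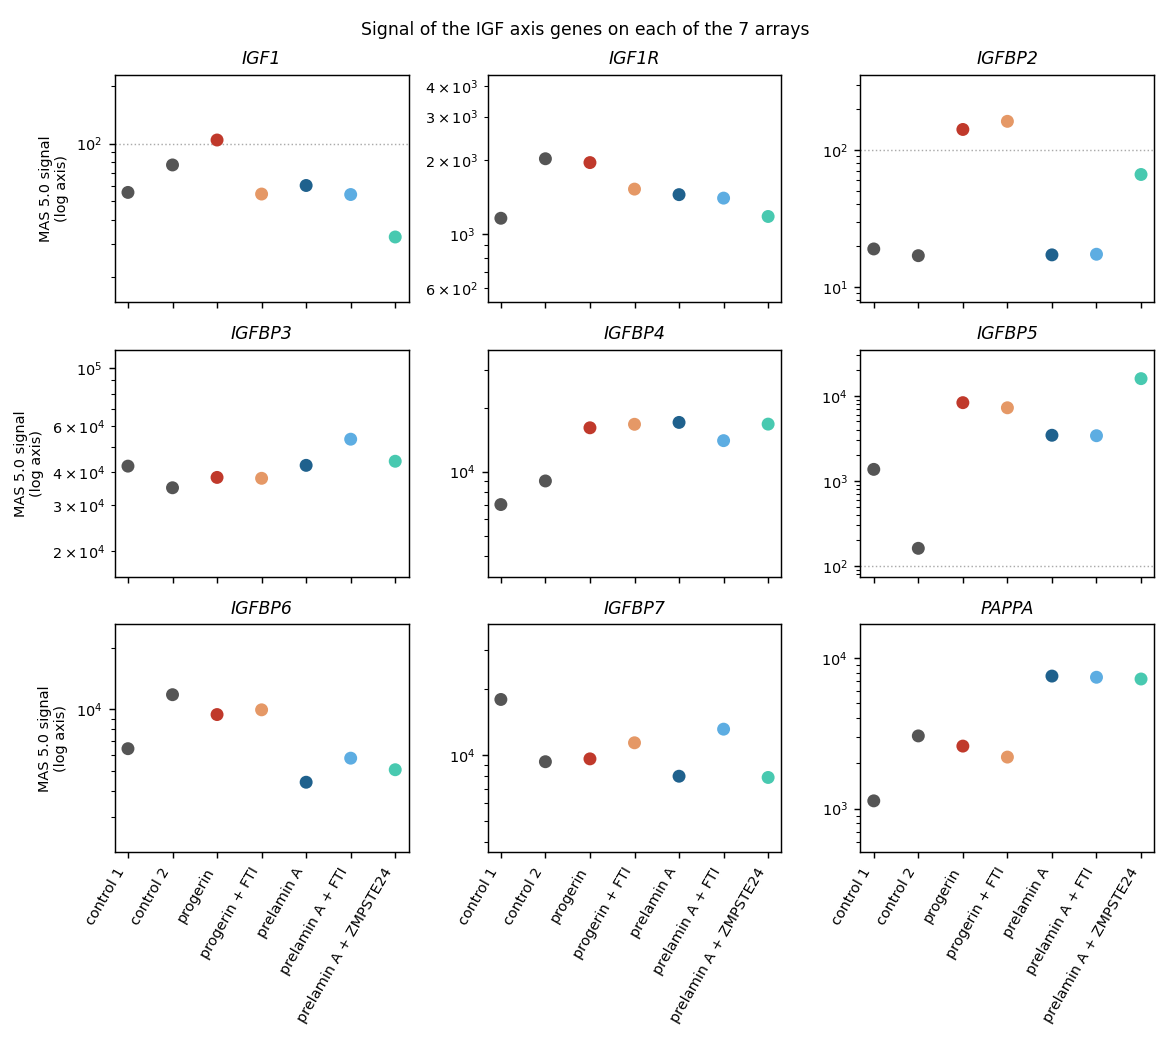
Signal of the 9 measured IGF axis genes (log axis, each panel with its own range) on each of the 7 arrays, 1 point per array, with the signal minimum of 100 as a dotted line where it falls within the range. IGFBP4 and IGFBP5 lie above both controls on all 5 arrays of cells with progerin or prelamin A, IGFBP2 is high on the 2 progerin arrays, and PAPPA on the 3 prelamin A arrays.

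The ligand IGF1 was dim. Its brightest probe set, 211577_s_at, read 55.6 and 77.3 on the controls, 104 with progerin, 54.5 with progerin and FTI, 60.4 with prelamin A, 54.2 with prelamin A and FTI, and 32.5 with prelamin A and ZMPSTE24. Progerin alone lay above both controls, and that array alone passed 100, while the other 4 IGF1 probe sets stayed below 100 on every array. The difference from control was 0.56 in progerin cells (SE 0.36) and -0.10 in prelamin A cells (SE 0.36), neither of which was called.

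The receptor gene IGF1R was measured at a similar level in all conditions. Probe set 225330_at read 1158 and 2022 on the controls, 1950 with progerin, 1521 with progerin and FTI, 1445 with prelamin A, 1398 with prelamin A and FTI, and 1177 with prelamin A and ZMPSTE24. All 5 values fell between the 2 controls, and the differences were 0.35 for progerin and -0.08 for prelamin A (SE 0.46 each). Of 4 IGF1R probe sets at 100 or more 1 was called, the dim 243358_at, lower in prelamin A cells by a log2 fold change of -1.42 (unadjusted p = 0.0339 from limma).

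Calls against control fell on IGFBP2, IGFBP4, IGFBP5 and PAPPA, and most of the measured members are binding proteins. Among 9 members 3 were called higher and none lower in progerin cells, namely IGFBP2, IGFBP4 and IGFBP5, while of all genes tested 3.76% were called higher and 2.04% lower. Prelamin A cells had IGFBP4 and PAPPA called higher and no member lower, with 6.29% of all genes higher and 4.02% lower. The median log2 fold change over the 9 members was 0.49 in progerin cells, beside 0.01 over all genes, and -0.03 in prelamin A cells, beside -0.02. IGFBP2 and IGF1 passed the signal minimum only through progerin arrays, which favours a higher progerin median, so these medians too are a description. These comparisons share their 2 controls.

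**Figure D2:**
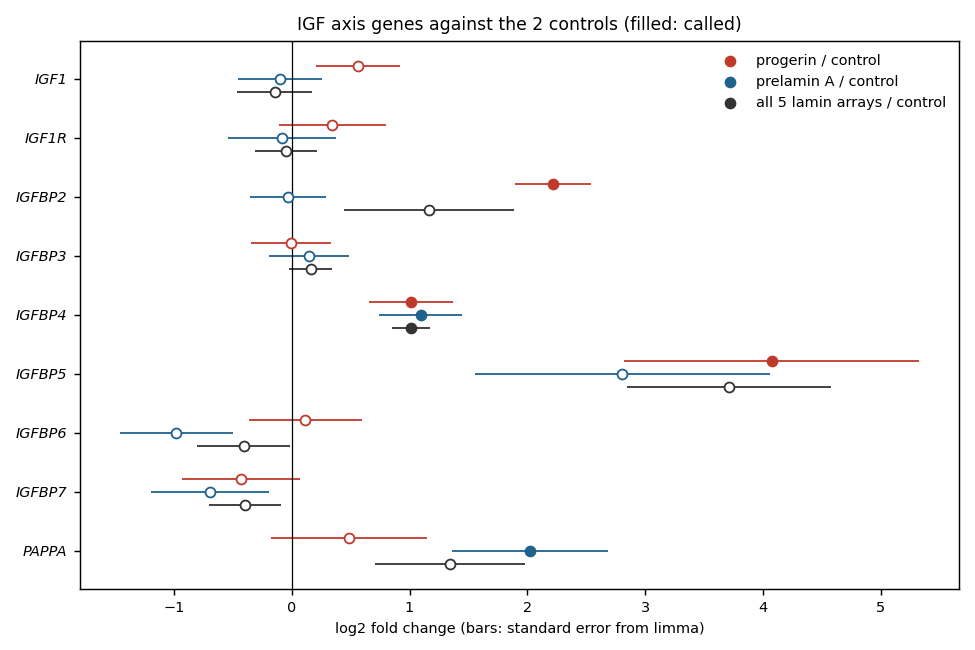
Log2 fold change against the 2 controls of progerin cells, of prelamin A cells and of all 5 arrays with progerin or prelamin A, with bars for the standard error from limma. Filled points were called, by fold and unadjusted p for the single conditions and at an adjusted p under 0.05 for the 5 arrays. IGFBP4 is filled in all 3 comparisons.

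IGFBP4, an inhibitory carrier of both ligands and the best known substrate of PAPPA, was higher than both controls on all 5 arrays with progerin or prelamin A. Its only probe set, 201508_at, read 7007 and 9043 on the controls, 16073 with progerin, 16692 with progerin and FTI, 17035 with prelamin A, 13987 with prelamin A and FTI, and 16725 with prelamin A and ZMPSTE24. The 5 arrays lay close together, the lowest being 1.55 times the higher control. IGFBP4 rose by 1.01 in progerin cells (SE 0.35, unadjusted p = 0.0396, adjusted p = 0.694 from limma) and by 1.10 in prelamin A cells (SE 0.35, unadjusted p = 0.0307, adjusted p = 0.352). Both values exceed the fold threshold narrowly, and against control 2 alone they were 0.83 and 0.91, under it. The call in progerin cells was also lost with a pseudocount of 1 (unadjusted p = 0.0503 from limma) and without the filter on dim probe sets (unadjusted p = 0.0545).

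Of the 9 members 2, IGFBP4 and IGFBP5, had all 5 arrays above both controls, as did 11.9% of all genes, and none had all 5 below, as did 12.3%. What the 5 arrays with progerin or prelamin A had in common was tested against the controls in a model of 2 states, with a call at an adjusted p under 0.05. IGFBP4 was the only member called, at 1.01 (SE 0.16, adjusted p = 0.0218 from limma), while 2.02% of all genes were called higher and 0.849% lower. The model counts the 5 arrays as independent, but they are 2 lines with and without treatment, so its errors and p-values may be too small. The adjusted p was 0.117 without control 1, 0.0618 without control 2, 0.0543 without progerin, 0.0545 without progerin with FTI and 0.0580 without prelamin A with ZMPSTE24, so the call rested on each of these arrays. On the same 5 arrays the summed signal of 4 marker genes of the embryonic kidney cells used to make lentivirus was 463 to 963, against 115 to 143 on the controls. The sum was carried by INA, which read 12.8 and 5.20 on the controls and 270 to 545 on the 5 arrays, and by NEFL, at 29.7 and 34.4 against 49.4 to 264. NEFM read 29.7 and 16.2 on the controls and 36.7 to 123 on the 5 arrays. PAX2 was split, with 71.1 and 58.7 on the controls. It read 29.6 and 53.8 on the progerin arrays, below both, and 81.3, 97.9 and 106 on the prelamin A arrays, above both. The 3 leukocyte markers summed to 281 to 641 there and 134 to 240 on the controls, mainly through CD14. The part of either marker list in the result was not tested.

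IGFBP5, a carrier that binds extracellular matrix and is likewise cut by PAPPA, had the widest range of the 9 members. Probe set 211959_at read 1367 and 161 on the controls, 8320 with progerin, 7243 with progerin and FTI, 3441 with prelamin A, 3400 with prelamin A and FTI, and 15943 with prelamin A and ZMPSTE24. All 5 arrays lay above both controls, the lowest at 2.49 times the higher control, and the ZMPSTE24 array was the highest. The 2 controls themselves differed by 2.96 on the log2 scale, a gap exceeded by 0.149% of genes.

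IGFBP5 rose by 4.07 in progerin cells (SE 1.25, unadjusted p = 0.0264, adjusted p = 0.645 from limma). Against control 1 alone the difference was 2.59 and against control 2 alone 5.56. In prelamin A cells it was 2.80 (SE 1.25, unadjusted p = 0.0812 from limma) and was not called, although it was with a pseudocount of 64 (unadjusted p = 0.0340) and with an intensity trend (unadjusted p = 0.0217). Over the 5 arrays together the difference was 3.71 (SE 0.86, adjusted p = 0.0736 from limma), with an adjusted p of 0.0413 without control 1, 0.377 without control 2 and 0.0425 with an intensity trend.

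All 6 IGFBP5 probe sets reached 100, and they were higher in the same conditions. In progerin cells 5 of the 6 were called higher, with 3.47% of all 24392 probe sets called higher there, and the log2 fold changes ran from 2.38 to 4.07. With prelamin A 3 of the 6 were called higher, with 5.49% of all probe sets, and the range was 1.27 to 2.80. In 5 of the 6 all 5 arrays lay above both controls, as in 11.2% of all probe sets, the exception being 1555997_s_at, where prelamin A with FTI read 126 and control 1 read 136. The controls were close together at 203424_s_at, which read 89.0 and 70.5 on them, 1105 with progerin, 896 with progerin and FTI, 234 with prelamin A, 170 with prelamin A and FTI, and 3724 with prelamin A and ZMPSTE24. There too the order was ZMPSTE24, then the progerin arrays, then the other prelamin A arrays, then the controls. Probe sets of 1 gene are read from the same RNA and are not replicates.

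**Figure D3:**
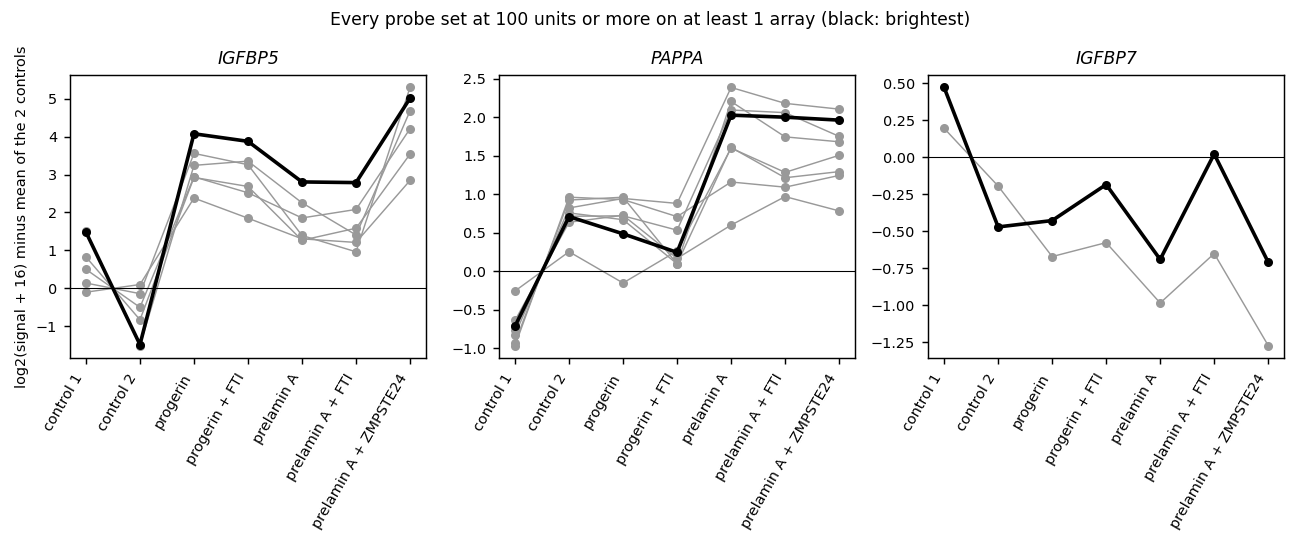
Difference from the mean of the 2 controls, as log2(signal + 16), on each array for each probe set of IGFBP5, PAPPA and IGFBP7 that reached 100, with lines joining the values of 1 probe set and the brightest probe set in black. The 6 IGFBP5 probe sets are highest with ZMPSTE24, and the 4 brightest PAPPA probe sets are high on the 3 prelamin A arrays.

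IGFBP2, a carrier with a preference for IGF2, was near background in the controls. Its only probe set, 202718_at, read 18.9 and 16.9 on the controls, 141 with progerin, 162 with progerin and FTI, 17.1 with prelamin A, 17.3 with prelamin A and FTI, and 66.2 with prelamin A and ZMPSTE24. The 2 progerin arrays were high, prelamin A with and without FTI lay within the span of the controls, and the ZMPSTE24 array fell in between, below the signal minimum. The difference in progerin cells was 2.22 (SE 0.32). IGFBP2 passed the signal minimum only through the progerin arrays, so its call there is a description, and the test is given without the filter, where it was also called (unadjusted p = 0.00299, adjusted p = 0.718 from limma). The size depends on the pseudocount and ran from 1.33 with 64 to 2.92 with 1. With prelamin A the difference was -0.03 (SE 0.32).

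The remaining binding proteins were not called in any comparison. IGFBP3, the main carrier of the ligands in blood, was bright everywhere at probe set 210095_s_at, with 42288 and 34965 on the controls, 38292 with progerin, 37995 with progerin and FTI, 42577 with prelamin A, 53582 with prelamin A and FTI, and 44140 with prelamin A and ZMPSTE24. The difference was -0.01 in progerin cells (SE 0.34), which turned to 0.31 after quantile normalization and 0.02 after median centring, and 0.15 in prelamin A cells (SE 0.34). At this probe set the progerin arrays lay between the controls, and the 3 prelamin A arrays lay above both. The other IGFBP3 probe set, 212143_s_at, differed, with 19677 and 21498 on the controls. There the progerin arrays, at 23290 and 22029, lay above both, and prelamin A with ZMPSTE24, at 20529, lay between them.

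IGFBP6, a carrier with a strong preference for IGF2, read 6438 and 11805 on the controls, 9444 with progerin, 9960 with progerin and FTI, 4416 with prelamin A, 5786 with prelamin A and FTI, and 5082 with prelamin A and ZMPSTE24 at probe set 203851_at. The 3 prelamin A arrays lay below both controls and the 2 progerin arrays between them. The difference of prelamin A from control was -0.98 (SE 0.48, unadjusted p = 0.103 from limma) and was not called.

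IGFBP7, a related secreted protein with low affinity for the ligands, read 17908 and 9306 on the controls, 9588 with progerin, 11356 with progerin and FTI, 7988 with prelamin A, 13103 with prelamin A and FTI, and 7885 with prelamin A and ZMPSTE24 at 201163_s_at. These values overlapped the controls. At its other bright probe set, 201162_at, the controls read 13526 and 10315, the 5 arrays 7408, 7909, 5956, 7513 and 4877 in the same order, and all 5 lay below both controls, as in 10.9% of all probe sets. The log2 fold change of the 5 arrays there was -0.83 (adjusted p = 0.146 from limma), and at 201163_s_at it was -0.40 (SE 0.31). Neither was called, and prelamin A with FTI was the highest of the 5 at 201163_s_at but not at 201162_at.

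PAPPA, the zinc protease that cleaves IGFBP4 and IGFBP5, was higher in cells with elevated prelamin A. Probe set 224940_s_at read 1127 and 3041 on the controls, 2603 with progerin, 2200 with progerin and FTI, 7592 with prelamin A, 7455 with prelamin A and FTI, and 7260 with prelamin A and ZMPSTE24. The 3 prelamin A arrays lay close together above all others, and the 2 progerin arrays lay between the controls. PAPPA rose by 2.03 in prelamin A cells (SE 0.66, unadjusted p = 0.0323, adjusted p = 0.357 from limma), and the difference in progerin cells was 0.49 (SE 0.66). Against control 1 alone the rise in prelamin A cells was 2.74 and against control 2 alone 1.32, and with a pseudocount of 1 it missed the threshold (unadjusted p = 0.0504 from limma). The β-actin 3′ to 5′ ratio, a sign of RNA quality, peaked on the untreated prelamin A array at 1.62, against 1.24 and 1.06 on the controls, and the part of RNA quality in the PAPPA values was not tested.

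Of 11 PAPPA probe sets 8 reached 100, and 5 of the 8 were called higher in prelamin A cells, with 5.49% of all probe sets, and none in progerin cells, with 3.47%. Their log2 fold changes ran from 0.60 to 2.38 in prelamin A cells and from -0.15 to 0.96 in progerin cells. In 7 of the 8 the 3 prelamin A arrays lay above both progerin arrays, as in 21.1% of all probe sets. The exception was the dim 232748_at, which read 49.5 and 142 on the controls and 98.4 to 183 on the other arrays.

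The treated arrays were compared with untreated cells of the same line to see which members went back towards the control level. With FTI no member was called in progerin cells, where 1.45% of all genes were, and none in prelamin A cells, where 2.81% were, and in both the count of members at an unadjusted p under 0.05 from limma was 0. In progerin cells FTI left IGFBP4 at 16692 and IGFBP5 at 7243, differences of 0.05 (SE 0.41) and -0.20 (SE 1.45). IGF1 showed the widest difference there, -0.77 (SE 0.41). In prelamin A cells with FTI the differences were -0.28 for IGFBP4 (SE 0.41), -0.02 for IGFBP5 (SE 1.45) and -0.03 for PAPPA (SE 0.76), and the widest was 0.71 for IGFBP7 (SE 0.58). With 1 array a condition these errors leave room for changes over 2-fold in IGFBP5 and PAPPA in either direction. They also leave room for a fall over 2-fold in IGFBP4, so these genes were not shown to be unchanged.

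**Figure D4:**
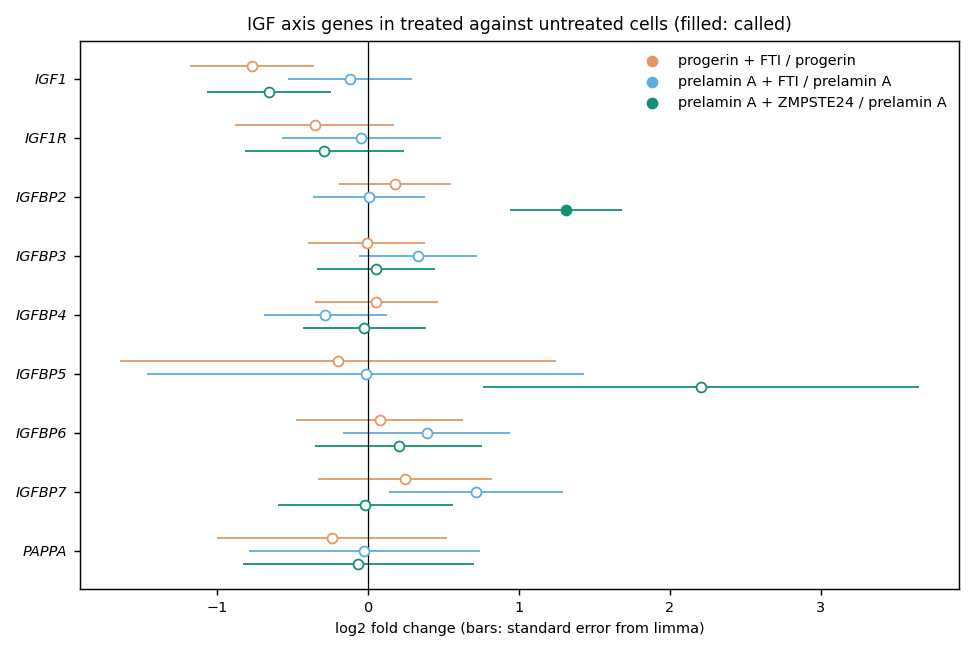
Log2 fold change of treated against untreated cells of the same line for FTI in progerin cells, FTI in prelamin A cells and ZMPSTE24 in prelamin A cells, with bars for the standard error from limma. IGFBP2 with ZMPSTE24 is the only filled, that is called, point, and IGFBP5 with ZMPSTE24 is the farthest from 0 at 2.21.

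ZMPSTE24 in prelamin A cells went with higher IGFBP2 and IGFBP5 signals, both away from the control level. IGFBP2 rose by 1.31 (SE 0.37, unadjusted p = 0.0198, adjusted p = 0.806 from limma) from 17.1 to 66.2, both below 100, where 2.18% of all genes were called higher and 2.85% lower. The call was lost with a pseudocount of 64 and with an intensity trend, and IGFBP2 was not tested where a mean signal of 100 was required. The brightest IGFBP5 probe set differed by 2.21 (SE 1.45, unadjusted p = 0.194 from limma) and was not called, while 4 of the 6 IGFBP5 probe sets were called higher, with 1.99% of all probe sets, at signals 3.10 to 15.9 times those of prelamin A alone. At 203424_s_at the difference was 3.90 (unadjusted p = 0.000341, adjusted p = 0.821 from limma). PAPPA did not differ by more than its error, at -0.06 (SE 0.76), nor did IGFBP4, at -0.03 (SE 0.41). The difference between ZMPSTE24 and FTI in prelamin A cells was 1.31 for IGFBP2 (SE 0.37, unadjusted p = 0.0202 from limma), which was called higher with 1.77% of all genes, and 2.22 for IGFBP5 (SE 1.45, unadjusted p = 0.191).

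With the arrays pooled into control, lamin (progerin and prelamin A) and treated states, no member passed an adjusted p under 0.05 in limma between lamin and control, where 0.558% of genes did. At an unadjusted p under 0.05 there were 2, IGFBP4 at 1.05 (SE 0.21, adjusted p = 0.12) and IGFBP5 at 3.44 (SE 1.09, adjusted p = 0.307). Between treated and lamin arrays 0% of genes were called, and no member had an unadjusted p under 0.05.

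The prelamin A line and the progerin line were compared over their 5 arrays in a limma model with 1 shared effect of treatment, a comparison added after the values were seen. No gene was called at an adjusted p under 0.05 (0% of genes), and 3 members had an unadjusted p under 0.05. PAPPA was higher in the prelamin A line by 1.65 (SE 0.42, unadjusted p = 0.0091, adjusted p = 0.237), and its lowest prelamin A array was 2.79 times its highest progerin array. IGFBP2 read lower there, at -1.97 (SE 0.40), with an unadjusted p of 0.00418 and an adjusted p of 0.370 from limma without the filter that it passed only through the progerin arrays. IGFBP6 was lower as well, at -0.97 (SE 0.29, unadjusted p = 0.0174, adjusted p = 0.239). Without overlap between the lines PAPPA and IGFBP3 were higher in the prelamin A line, as were 21.4% of all genes, and IGFBP2, IGFBP6 and IGF1R were lower, as were 24% of all genes. These shares are close to those of the members (2 and 3 of 9), so the absence of overlap sets no member apart. Other probe sets disagreed for IGF1R and IGFBP3. At 203627_at IGF1R read 1751, 1350 and 1299 on the prelamin A arrays, all above 1158 and 1270 on the progerin arrays. At 212143_s_at IGFBP3 overlapped, with 20529 for ZMPSTE24 below 23290 and 22029 on the progerin arrays. Between the 2 untreated arrays alone IGFBP2 was the only member called in either direction, with 7.05% of all genes, at -2.25 (SE 0.37), under the same reservation about the filter.

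Other genes of the axis were read from a list of 17. It held carriers, receptors, proteases and their inhibitors, the mRNA-binding IGF2BP genes, which are not carriers, and the non-coding H19. Of the list 11 were tested, 5 were below 100 on every array (IGFBP1, IGFBPL1, IGFALS, IGF2BP1 and ADAM28) and H19 had no probe set of its own. None was called in progerin cells, beside 3.76% of all genes higher and 2.04% lower. Among those tested in prelamin A cells STC2 and GHR were called higher and ADAM12 lower, beside 6.29% and 4.02% of all genes. STC2, a stanniocalcin that inhibits PAPPA, read 2500 and 4398 on the controls, 5674 with progerin, 4180 with progerin and FTI, 10600.5 with prelamin A, 8741 with prelamin A and FTI, and 8620 with prelamin A and ZMPSTE24. Like PAPPA it was high on the 3 prelamin A arrays, and it rose by 1.67 in prelamin A cells (SE 0.46, unadjusted p = 0.0180 from limma). ADAM12, a metalloprotease that cleaves IGFBP3 and IGFBP5, read 7400 and 9816 on the controls, 5198 and 5410 on the progerin arrays and 1961 to 2656 on the prelamin A arrays. All 5 arrays lay below both controls, as in 12.3% of all genes. ADAM12 fell by 1.68 in prelamin A cells (SE 0.36, unadjusted p = 0.00723 from limma), and over the 5 arrays the difference was -1.37 (SE 0.42, adjusted p = 0.153 from limma) and was not called. GHR, the growth hormone receptor, rose by 1.07 (SE 0.39, unadjusted p = 0.0445), a call that was lost after quantile normalization, median centring, a pseudocount of 1 or 64, and without the filter on dim probe sets.

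The CCN genes encode secreted matrix proteins with a domain related to the binding proteins, and 5 of the 6 were tested, CCN6 being dim. CCN5 and CCN3 were called higher in both lines, beside 3.76% of all genes with progerin and 6.29% with prelamin A. The adjusted p from limma was 0.241 and 0.167 for CCN5 and 0.654 and 0.249 for CCN3, in progerin and prelamin A cells. CCN5 read 876 and 961 on the controls, 8216 with progerin, 6124 with progerin and FTI, 3381 with prelamin A, 1643 with prelamin A and FTI, and 6029 with prelamin A and ZMPSTE24, and it rose by 3.14 in progerin cells (SE 0.32) and by 1.86 in prelamin A cells (SE 0.32). CCN3 read 607 and 183 on the controls and 1718 to 7540 on the other arrays, and it rose by 2.35 and 3.06 (SE 0.74 each), where the rise in progerin cells was 1.53 against control 1 alone and 3.17 against control 2 alone. CCN4 fell by 2.01 in prelamin A cells (SE 0.38), where it was called lower beside 4.02% of all genes, and differed by -0.63 in progerin cells. With FTI in prelamin A cells CCN5 was called lower, at -1.03 (SE 0.37, unadjusted p = 0.0444 from limma), beside 2.81% of all genes called in either direction. No other gene of this list was called in a comparison of treated with untreated cells.

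Signalling genes downstream of IGF1R were read from a further list, of which 31 were tested and GRB14 was dim. With progerin 1 was called higher and none lower, beside 3.76% and 2.04% of all genes, and with prelamin A 5 were called higher and 1 lower, beside 6.29% and 4.02%. FOXO1, the forkhead factor that AKT keeps out of the nucleus, was called in both lines. Its probe set read 112 and 83.7 on the controls, 248 with progerin, 216 with progerin and FTI, 265 with prelamin A, 315 with prelamin A and FTI, and 242 with prelamin A and ZMPSTE24. The 5 arrays lay above both controls, as in 11.9% of all genes, and over these arrays 2.02% of all genes were called higher. FOXO1 rose by 1.23 in progerin cells (SE 0.35, unadjusted p = 0.0206), by 1.32 in prelamin A cells (SE 0.35, unadjusted p = 0.0162) and by 1.27 over the 5 arrays (SE 0.19, adjusted p = 0.0156 from limma). Without control 2 the last adjusted p was 0.136.

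In prelamin A cells the adaptor IRS2 rose by 1.70 (SE 0.33), the regulatory PI3-kinase subunits PIK3R1 by 1.85 (SE 0.35) and PIK3R3 by 1.59 (SE 0.50), and the mTOR inhibitor DEPTOR by 1.63 (SE 0.51). Their adjusted p from limma was 0.188 for IRS2, 0.185 for PIK3R1, 0.342 for PIK3R3 and 0.342 for DEPTOR. IRS2 read 2880 and 3209 on the controls, 3099 and 3165 on the progerin arrays, 9944 with prelamin A, 6584 with prelamin A and FTI, and 5614 with prelamin A and ZMPSTE24. The progerin arrays lay between the controls and the prelamin A arrays well above them. EIF4EBP1, a repressor of translation that mTOR phosphorylates, fell by 2.08 (SE 0.74, adjusted p = 0.399 from limma), with 1683 and 5300 on the controls, 1019 and 1037 on the progerin arrays and 510 to 693 on the prelamin A arrays. Against control 1 alone its fold change was -1.26 and against control 2 alone -2.91. Its call was kept in 6 of the 9 alternatives that gave a test, and a pseudocount of 1 was among those that lost it. No gene of this list was called with FTI, and with ZMPSTE24 the AKT phosphatase gene PHLPP1 was called higher, at 1.48 (SE 0.39, adjusted p = 0.765 from limma). All-gene shares were 1.45% and 2.81% with FTI in progerin and prelamin A cells, and 2.18% higher with ZMPSTE24.

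**Figure D5:**
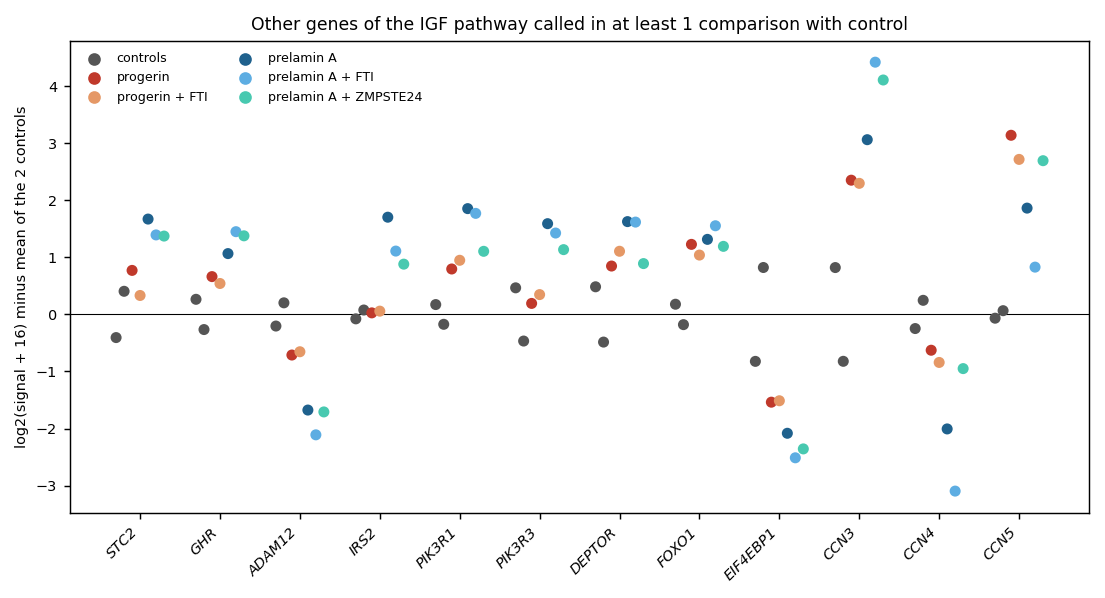
Difference from the mean of the 2 controls, as log2(signal + 16), on each of the 7 arrays for the 12 other pathway genes called in progerin cells, prelamin A cells or all 5 arrays against control. FOXO1, CCN3, CCN5, GHR, DEPTOR and PIK3R1 are above both controls on all 5 arrays, as are 11.9% of all genes. ADAM12, EIF4EBP1 and CCN4 are below both on all 5, as are 12.3%. IRS2 is raised on the prelamin A arrays. The genes were chosen for being called against control.

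The genes whose pattern was most like that of IGFBP5, the member of widest range, were found by the root mean square distance between log2 values centred on the mean of each gene over the 7 arrays. The 5 nearest were FOLR3, a folate receptor gene, at 0.53, the relaxin receptor gene RXFP1 at 0.60, the junctional adhesion gene JAM2 at 0.61, the adhesion receptor gene ADGRD1 at 0.64 and the GTPase activator gene ARHGAP20 at 0.71. In all, 24 genes lay within 1, and the median over all other genes was 2.01. RXFP1 read 137 and 44.1 on the controls, 1134 and 744 on the progerin arrays, 266 and 382 with prelamin A without and with FTI, and 1932 with ZMPSTE24. In all 5 genes control 1 was above control 2, as for IGFBP5, and the 5 other arrays were above control 2. The genes were chosen by closeness to IGFBP5 on all 7 arrays, controls included, so this likeness follows from the choice.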

How the data were processed

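Per the labels and the study's methods, the authors deposited MAS5 intensity on a linear scale, 1 signal for each of 54675 probe sets on each array, background-corrected, summarised and scaled in that program, and no column belonged to other samples. The S-score test of the study needs probe-level values and was not repeated. By the platform annotation 41091 probe sets had 1 gene, 1801 several and 11721 none (62 more were array controls), and 41037 were matched by gene ID to RefSeq (GRCh38.p14). The minimum was a signal of 100 on any array, and the brightest probe set stood for its gene. Values were analysed as log2(signal + 16) with limma 3.58.1 in R 4.3.3, with Benjamini-Hochberg adjustment over 12726 genes. The models had 6 conditions (1 residual and 3.50 prior degrees of freedom), 3 states (4 and 2.60), 2 states (5 and 2.61) and line with treatment (3 and 2.55). The number of arrays limits the precision. The fits were tested on simulated data with known changes.

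Members, lists, motifs and tests were chosen with earlier results of these data known. The text names all members, the pathway genes called in progerin, prelamin A or all 5 arrays against control, and the 5 genes nearest to the member of widest range. PHLPP1, list genes named as dim or unmeasured, and the differences between lines and between ZMPSTE24 and FTI were added after values were seen. Alternatives tried were a quantile or median normalization, a pseudocount of 1 or 64, no signal minimum or 1 on the mean signal, a fit over every probe set, an intensity trend, a stricter p of 0.01, a block for line, and each array left out in turn.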

Additional observations from a re-analysis of the deposited data

Results flagged for a closer look

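Within the 6-condition model the difference between prelamin A cells and progerin cells was tested for 21 genes, the 9 measured members and the 12 named pathway genes, and 4 of them differed over 2-fold at an unadjusted p under 0.05 from limma. The 12 pathway genes were chosen for being called against control, so this count has no background to be set against. Each line has 1 untreated array, and no adjusted p passed 0.05. IGFBP2 differed by -2.25 on the log2 scale (SE 0.37), having passed the signal minimum only through the progerin arrays, reading 141 with progerin and 17.1 with prelamin A. IRS2 differed by 1.68 (SE 0.38, unadjusted p = 0.00851, adjusted p = 0.618). CCN4 differed by -1.38 (SE 0.44, unadjusted p = 0.0290, adjusted p = 0.653), reading 3696 with progerin and 1411 with prelamin A. CCN5 differed by -1.28 (SE 0.37, unadjusted p = 0.0224, adjusted p = 0.651), being higher than control in both lines.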

How the results depend on the processing

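The groups share no replicate numbers, which the labels give only to the 2 controls, so treated and untreated arrays could be matched by line only. With line as a block, no member was called between lamin and control or between treated and lamin, and over all genes 110 were higher and 27 lower between lamin and control and 0 between treated and lamin. The count of members called in progerin cells was 3, and 1 at an unadjusted p under 0.01 (IGFBP2), and 2 with a pseudocount of 1, without the filter or with the minimum set on the mean signal. In prelamin A cells it was 2, against 1 with a pseudocount of 1 and 0 at a p under 0.01. With ZMPSTE24 it was 1, against 0 with a pseudocount of 64, the minimum on the mean signal, an intensity trend or a p under 0.01. An intensity trend gave 1 between lamin and control and 2 over the 5 arrays, where leaving out 1 array gave 0 to 1. The other 79 recomputed counts lay within 1.5 times the reported ones, and the 2 FTI counts were 0 under all alternatives run. With a control left out the 6-condition model has no residual degree of freedom, so only values were computed.

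The sign turned only for differences that were not called. When arrays were left out, the difference in progerin cells ranged from -0.051 to 0.74 for IGF1R, -0.14 to 0.13 for IGFBP3, -0.32 to 0.55 for IGFBP6, -0.90 to 0.043 for IGFBP7 and -0.22 to 1.20 for PAPPA. In prelamin A cells it ranged from -0.29 to 0.094 for IGF1, -0.48 to 0.32 for IGF1R and -0.076 to 0.00996 for IGFBP2, and over the 5 arrays from -0.34 to 0.047 for IGF1, -0.45 to 0.35 for IGF1R, -0.84 to 0.029 for IGFBP6 and -0.87 to 0.073 for IGFBP7. These signs turned without a control, and for IGF1 and IGF1R over the 5 arrays also without the ZMPSTE24 array. IGFBP3 in progerin cells became 0.31 after quantile normalization and 0.018 after median centring. Of the other values of single genes 505 kept direction and side of the threshold, 33 lost the call and 4 gained it.

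Over all genes the calls ranged from 267 to 1340 in progerin cells (738 as reported), 519 to 2304 in prelamin A cells (1312), 31 to 600 and 73 to 913 with FTI in progerin and prelamin A cells (185 and 358), 185 to 1176 with ZMPSTE24 (641), 0 to 137 between lamin and control (71) and 111 to 456 over the 5 arrays (365). Median centring moved the median of all genes between the lines from -0.02 to -0.15, and with FTI in progerin cells it gave 76 genes higher and 88 lower, in place of 64 and 121. The cause of these shifts was not tested.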
